A study of Mus musculus with 37 samples.

Results

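Gene expression was compared between BCR-ABL1-transformed mouse pre-B cells carrying IK6 that had been treated with bexarotene (3 libraries) and the same cells treated with the solvent DMSO (4 libraries). The 7 libraries were picked by their titles from the 37 of the series. All of them came from bone marrow pre-B cells of adult C57BL/6 mice lacking Arf (genotype Arf-/-;BCR-ABL1;IK6), which had been made leukemic with BCR-ABL1, in the p185 form that the series' design text names, and then given the MIG vector expressing IK6. Loss of Arf, BCR-ABL1 and the vector are thus shared by treated and control cells. Bexarotene was used at 1 µM, dissolved in DMSO. Cells grew in RPMI with 10% FCS and without cytokines. 3 further groups serve as references: cells with the empty MIG vector (Arf-/-;BCR-ABL1;MIG) with bexarotene (3 libraries) or DMSO (4 libraries), and IK6 cells with 1 µM all-trans retinoic acid, ATRA (4 libraries). The sources used here do not state how long the cells were treated, or how many mice, transductions or separate cultures lie behind the libraries. The other libraries of the series entered the fit only to estimate the spread between libraries of a group. The p-values therefore rest on this spread over all 37 libraries, which may be technical.

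Bexarotene is a drug that binds the retinoid X receptors (RXRs) and is used in the clinic against cutaneous T cell lymphoma. RXRs bind DNA in pairs with other nuclear receptors. Some of these partners, such as the liver X receptors (LXRs) and the peroxisome proliferator-activated receptors (PPARs), are known to respond to an RXR ligand alone, whereas the retinoic acid receptors (RARs), the receptors of ATRA, are known to respond mainly to their own ligand. IK6 is an isoform of IKAROS, a zinc finger factor needed for lymphocyte development, that lacks the DNA-binding fingers and acts as a dominant negative. It is found in BCR-ABL1 acute lymphoblastic leukemia, where the kinase keeps pre-B cells dividing. Pre-B cells carry a surrogate light chain in their receptor and recombine their immunoglobulin genes after they leave the cycle.

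Total counts per library ran from 30257934 to 44716880 with DMSO and from 17367773 to 47106852 with bexarotene. Ribosomal protein genes took 9.1 to 9.57% of the counts with DMSO and 11.48, 10.91 and 9.26% in bexarotene replicates 1 to 3. Replicate 3 stood apart: its counts differed from those of replicates 1 and 2 with a chi-square per degree of freedom of 28.4 and 15.2, against 4.1 between replicates 1 and 2. In MIG cells, replicate 3 of DMSO and replicate 3 of bexarotene held more ribosomal protein reads (15.37 and 12.47%) than the other libraries used here. Ikzf1, the IKAROS gene, which also counts reads of the IK6 transgene as far as the annotation covers them, was at 413 to 438 CPM (counts scaled to library size) in IK6 cells with DMSO and at 259 to 273 CPM in MIG cells with DMSO, with no overlap. Cdkn2a, the gene that encodes Arf and also p16, was at 65.3, 71.3, 70.2 and 69.5 CPM with DMSO and 78.2, 75.3 and 57.8 CPM with bexarotene. These ranges overlapped, and counts per gene cannot separate the deleted Arf exon from the rest of the gene.

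Of 14 pre-B cell markers, all had reads, and their summed level, scaled to the library total alone, was 6370 to 6750 CPM with DMSO and 8820 to 9330 CPM with bexarotene. Other cell types were looked for with 4 lists. The summed level of 30 myeloid markers was 37.6 to 41.4 CPM with DMSO and 63.2 to 74.7 CPM with bexarotene, and the neutrophil markers S100a8, S100a9, Elane and Ly6g had 0 counts in all 7 libraries. Other neutrophil granule genes had reads: Prtn3 had 196 pooled counts with DMSO and 132 with bexarotene, Camp 7 and 11, and Mpo 4 and 3. The 26 T and NK cell markers summed to 334 to 352 CPM with DMSO and 222 to 230 CPM with bexarotene, with at most 9 pooled counts in either group for Cd3d, Cd3e, Cd3g, Cd4 and Cd8a. The sums of 20 erythroid and megakaryocyte markers (56.8 to 63 and 62.8 to 73 CPM) and of 21 stromal and endothelial markers (221 to 243 and 222 to 241 CPM) overlapped between the groups. Opposite moves met in the last sum: with DMSO and bexarotene, Eng was at 155 and 116, Thy1 at 23.8 and 8.2 and Pecam1 at 50.5 and 100 CPM. Of its 8 tested members 4 were higher and 2 lower. Single genes also carried large parts of other sums, such as Cd2 (173 and 118 CPM), Lck (108 and 79.2 CPM) and Csf2ra (20.6 and 40.6 CPM). The part of these markers in the results below was not tested, and the genes named for this check were chosen after their values were seen. In bulk libraries, fewer cells of a type and less RNA per cell cannot be told apart.

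Bexarotene changed the level of a large part of the genes. Of 15699 genes tested with edgeR's quasi-likelihood test, 6555 (41.8%) passed an adjusted p of 0.05 (Benjamini-Hochberg). Of these, 3503 (22.3% of the genes tested) were higher and 3052 (19.4%) lower. A difference of at least 2-fold, which is 1 on the log2 scale, was reached by 675 of the higher and 623 of the lower genes, together 8.27% of the genes tested. The libraries of both groups did not overlap for 8818 genes (56.2%). The median log2 difference over all genes tested was 0.03. Every count of list members below is read against these shares.

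**Figure D1:**
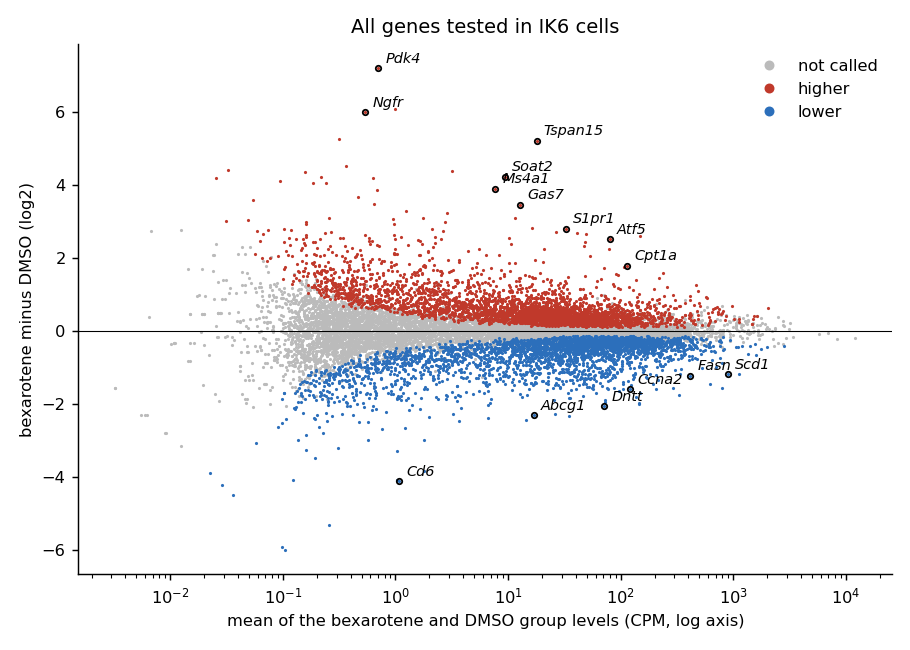
Each point is a gene tested in IK6 cells. The horizontal axis is the mean of the 2 group levels in CPM on a log axis, and the vertical axis the log2 difference between bexarotene and DMSO. Genes called higher are red (3503), genes called lower blue (3052) and genes not called grey. Named genes are circled. Pdk4 at 7.21 and Tspan15 at 5.22 lie far above 0, and Cd6 at -4.10 far below.

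The genes with the largest rises came from very low levels. Pdk4, the kinase that shuts pyruvate out of the mitochondrial citric acid cycle, was at 0, 0, 0 and 0.0218 CPM in DMSO replicates 1 to 4 and at 1.38, 1.15 and 1.69 CPM in bexarotene replicates 1 to 3. The pooled counts were 1 and 152, a ratio of 230 with a counting interval of 40.7 to 9160. Ngfr, the low-affinity nerve growth factor receptor, was at 0, 0.0321, 0 and 0.0218 CPM with DMSO and 0.831, 1.20 and 1.15 CPM with bexarotene, from 2 and 106 pooled counts, a ratio of 80.3 with a counting interval of 21.7 to 672. Tspan15, a tetraspanin that carries the protease ADAM10, rose from 1.20, 0.899, 0.924 and 0.741 CPM to 36.7, 33.3 and 34.5 CPM. Its log2 difference was 5.22 ± 0.17 (SE), with an adjusted p of 1.56e-21. Soat2, which esterifies cholesterol, rose from 1.07, 0.964, 0.849 and 0.893 CPM to 19.7, 17.4 and 15.9 CPM (log2 difference 4.23 ± 0.2, adjusted p = 8.07e-18). Ostn, the secreted peptide osteocrin, rose from a mean of 0.0250 to 1.95 CPM. The largest rises and falls were picked among genes whose groups did not overlap. Their lack of overlap is thus no separate result.

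3 of the 12 largest rises encode proteins of activated or mature B cells. Ms4a1, which encodes CD20, rose from 1.30, 0.610, 0.924 and 0.937 CPM to 13.5, 15.7 and 13.9 CPM (log2 difference 3.90 ± 0.16, adjusted p = 3.32e-19). Cd83, a surface protein of activated B cells and dendritic cells, went from a mean of 0.537 to 5.15 CPM, and Cd40, the receptor of T cell help, from 0.0657 to 1.20 CPM. Both passed the test (adjusted p = 4.13e-16 and 7.57e-12). The remaining large rises were Gas7 (2.12 to 23.3 CPM, log2 difference 3.47), Il1r1, an interleukin 1 receptor (0.101 to 1.19 CPM), Wwtr1, which encodes the Hippo pathway coactivator TAZ (0.0844 to 1.28 CPM), and the gelatinase gene Mmp9 (0.227 to 2.25 CPM).

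The largest falls were of genes of several kinds. Cd6, a T cell surface receptor, was at 2.21, 1.54, 2.35 and 1.96 CPM with DMSO and 0.101, 0.164 and 0.107 CPM with bexarotene (log2 difference -4.10 ± 0.32, adjusted p = 2.74e-12). Gria2, a glutamate receptor subunit of neurons, was at 26.4, 22.3, 25.8 and 22.3 CPM with DMSO and 4.29, 4.75 and 4.40 CPM with bexarotene (log2 difference -2.44 ± 0.2, adjusted p = 1.32e-11). Like the rises, these genes were picked among those without overlap between the groups. Mc1r, the melanocortin receptor, fell from a mean of 57.8 to 11.5 CPM, Zan from 11.2 to 2.11 CPM, Dnm1, the dynamin of neurons, from 6.23 to 1.06 CPM, and Slc35d3 from 3.36 to 0.221 CPM. C4bp, a complement regulator, fell from 3.20 to 0.392 CPM and the potassium channel subunit Kcnmb1 from 1.33 to 0.184 CPM. The heavy chain variable segment Ighv14-2 fell from 1.89 to 0.187 CPM. Hist1h2af, a histone gene with near-identical copies whose reads the counting could split, was at 2.94, 1.67, 1.27 and 1.92 CPM with DMSO and 0.121, 0 and 0.161 CPM with bexarotene. Its log2 difference of -4.07 had an SE of 1.17, on fewer than 3 CPM in every library.

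Targets of the retinoic acid receptors went both ways, and most of those tested were not called. Of 31 listed genes 18 could be tested, of which 5 were higher and 2 lower, with a median log2 difference of 0.04 beside 0.03 over all genes. Of the called members 4 reached 2-fold. Cd38, a surface enzyme known as a retinoic acid target in human leukemia cells, was at 121, 116, 130.2 and 126 CPM with DMSO and 262, 275 and 290.3 CPM with bexarotene. Every bexarotene library lay above the DMSO range (log2 difference 1.17 ± 0.068, adjusted p = 4.06e-15). Asb2, a ubiquitin ligase subunit first described as a retinoic acid target in leukemia cells, was at 6.19, 4.75, 4.12 and 4.51 CPM with DMSO and 19.2, 16.3 and 18.3 CPM with bexarotene (log2 difference 1.88 ± 0.12, adjusted p = 1.45e-14). The zinc finger gene Hic1 rose from 0.353 to 1.60 CPM, Tgm2, tissue transglutaminase, from 17.5 to 27.2 CPM, and Cyp26a1, which breaks down retinoic acid, from 0.0833 to 0.305 CPM. The last stayed near the limit of detection in every library. Lower were Rdh11 (107 to 55.5 CPM) and Dhrs3 (4.06 to 2.64 CPM), both retinal reductases. The receptors themselves did not pass the test: Rara was at 43.0 and 41.8 CPM (95% interval of the log2 difference -0.27 to 0.19), Rarb at 0.557 and 0.409 CPM (-1.18 to 0.24) and Rarg at 0.576 and 0.841 CPM (0.08 to 1.09). Intervals are not adjusted over genes, so that of an uncalled gene may leave out 0; Rarg passed the test without bexarotene replicate 2 (adjusted p = 0.0312) or DMSO replicate 4 (0.0399). Rdh10 (log2 difference -0.05) and the corepressor gene Nrip1 (-0.18) were not called either.

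Targets of LXR were mostly lower, opposite to the activation of LXR-RXR pairs for which RXR ligands are known. The compounds are named here as the labels give them. Of 24 listed genes of cholesterol efflux and lipid synthesis 20 could be tested, of which 11 were lower and 4 higher, with a median log2 difference of -0.45. The number of higher members was 2 without bexarotene replicate 1 or 2 or DMSO replicate 1, 2 or 4, 3 without the other libraries, and 2 with DESeq2. Abcg1, a pump that loads cholesterol onto HDL, was at 29.9, 26.5, 29.7 and 25.9 CPM with DMSO and at 5.71, 5.46 and 5.82 CPM with bexarotene. The groups did not overlap (log2 difference -2.30 ± 0.071, adjusted p = 1.77e-22). Abca1, the pump that starts HDL formation, was barely detected, with 28 pooled counts with DMSO and 3 with bexarotene, a ratio of 6.16 with a counting interval of 1.9 to 31.6. Scd1, the desaturase that makes oleic acid, fell from 1285, 1195, 1306 and 1202 CPM to 483, 545 and 624 CPM, with all 3 bexarotene libraries below all 4 DMSO libraries (log2 difference -1.18 ± 0.082, adjusted p = 2.33e-13). Its neighbour in function Scd2 fell from a mean of 1562 to 699 CPM and Arl4c, a small GTPase, from 39.4 to 15.8 CPM. Srebf1, the gene of the lipogenic factor SREBP1, fell from 157, 145, 149.6 and 142 CPM to 84.8, 90.3 and 93.0 CPM, and Fasn, fatty acid synthase, from 618, 584, 587 and 537 CPM to 225, 233 and 292 CPM. Neither gene's groups overlapped (log2 differences -0.73 ± 0.083 and -1.22 ± 0.092, adjusted p = 1.2e-08 and 1.6e-12). Pltp, a phospholipid carrier, was also lower (5.10 to 3.31 CPM). Mylip, which marks the LDL receptor for degradation, was at 38.0 and 36.6 CPM and was not called (95% interval of the log2 difference -0.15 to 0.04), nor was Lpcat3 (67.8 and 58.8 CPM, -0.41 to -0.01). Lpcat3 was called lower with a filter of at least 1 CPM in 3 libraries (adjusted p = 0.0441) and with the compared groups alone (0.000768). It was also called without the 3 MIG libraries richest in ribosomal protein reads (0.0338). The higher members were Npc1 (log2 difference 0.32), Apoe (0.49) and the LXR genes Nr1h3 (1.12, groups overlapping) and Nr1h2 (0.29). These LXR genes encode the receptors themselves and are counted with the targets here. Nr1h2 lost its call without any 1 library other than bexarotene replicate 3, and Apoe without any 1 other than DMSO replicate 3.

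The promoters of Abca1, Srebf1 and Fasn, which fell, hold the direct repeat with 4 spacing bases that LXR-RXR pairs bind, and the promoter of Cyp26a1 holds the repeat with 5 spacing bases that RAR-RXR pairs bind. They are shown to set these elements beside the directions above. They were picked because they hold a match, so they cannot show whether element and direction go together. The promoter of Acsl3, described next, also holds the first repeat. Among the other tested genes of the lists, Elovl1 and Rarres1, which were not called, hold the first repeat. The second is also in the promoters of Lgmn, which rose, and of Rarb, Mitf and Cd80, which were not called. Promoters on 1 chromosome were left out of this look at single genes, so further list genes may hold either repeat. The windows are upstream of the RefSeq start, in build GRCm38.p6, which is not the build of the counts, with the matched repeat in capitals and each window written along its gene's strand.
Abca1: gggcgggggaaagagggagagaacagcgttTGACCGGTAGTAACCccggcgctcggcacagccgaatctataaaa
Srebf1: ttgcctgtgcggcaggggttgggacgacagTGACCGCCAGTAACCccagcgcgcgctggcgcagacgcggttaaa
Fasn: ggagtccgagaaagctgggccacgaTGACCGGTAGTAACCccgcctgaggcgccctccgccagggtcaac
Cyp26a1: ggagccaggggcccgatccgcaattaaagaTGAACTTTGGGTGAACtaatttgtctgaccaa
The windows are chr4:53159918-53159992 (minus strand), chr11:60210609-60210683 (minus strand, 1 of 3 starts in the table), chr11:120824728-120824797 (minus strand) and chr19:37697746-37697807 (plus strand). The repeat begins 67, 182, 225 and 32 bases before the start, in that order. The searched letters were GGTNA, any 5 bases and GGTNA for LXR-RXR, and GNTCA, any 6 bases and GNTCA for RAR-RXR, where N is any base, on either strand; all 4 matches shown lie on the strand opposite to these letters. They occur in 0.718% and 0.861% of all 32851 promoters of 300 bases. Counted per gene, over any of its promoters, they occur in 0.643% and 0.716% of the 9639 tested genes with a promoter in the table. Of these genes, 2397 were higher and 1997 lower with bexarotene. The LXR-RXR letters were in 14 (0.584%) of the higher and 16 (0.801%) of the lower genes. The RAR-RXR letters were in 18 (0.751%) and 17 (0.851%). The letters GGTCA, any 2 bases and GGTCA, the repeat with 1 spacing base known for PPAR-RXR pairs, were in 0.222% of all promoters. Per gene they were in 0.249% of the tested, 0.209% of the higher (5) and 0.15% of the lower genes (3). A match describes the letters and is not a binding site.

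Genes of sterol synthesis fell. All 25 listed genes of the cholesterol pathway were tested, and 23 were lower, 1 was higher and 1 was not called, with a median log2 difference of -1.05. Idi1, the isomerase that makes the allylic isoprene unit, was at 309.6, 312, 293 and 322 CPM with DMSO and 91.7, 105 and 112 CPM with bexarotene (log2 difference -1.58 ± 0.094, adjusted p = 6.63e-15). Acat2, which makes acetoacetyl-CoA for the pathway, was at 114, 122, 111 and 117 CPM with DMSO and 27.6, 28.4 and 35.0 CPM with bexarotene (log2 difference -1.93 ± 0.089, adjusted p = 6.64e-18). Neither enzyme's groups overlapped. Lss, which closes the sterol rings, fell from a mean of 182 to 65.6 CPM. Of 21 genes of fatty acid and triglyceride synthesis 15 were lower and 2 higher, with a median of -0.68. This list overlaps that of LXR targets, with Scd1 in both, so their counts are not separate results. Acsl3, which activates long-chain fatty acids at lipid droplets, was at 94.8, 97.5, 98.7 and 97.6 CPM with DMSO and 39.5, 41.1 and 44.0 CPM with bexarotene, without overlap (log2 difference -1.23 ± 0.069, adjusted p = 1.48e-15).

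Targets of PPAR were more often higher than lower. Of 29 listed genes 24 were tested, 11 were higher and 3 lower, with a median of 0.28. Cpt1a, which lets fatty acids into mitochondria, was at 48.4, 51.3, 53.8 and 51.8 CPM with DMSO and 175, 166 and 194 CPM with bexarotene (log2 difference 1.80 ± 0.053, adjusted p = 5.95e-23). Slc25a20, the carnitine carrier that works next to it, was at 7.57, 7.45, 6.32 and 7.45 CPM and 33.9, 34.4 and 34.5 CPM (log2 difference 2.25 ± 0.12, adjusted p = 1.17e-15). For both, all bexarotene libraries lay above all DMSO libraries. Cd36, the fatty acid transporter, rose from 10.6, 11.2, 11.5 and 10.6 CPM to 67.3, 72.5 and 71.5 CPM, and Acot2, a mitochondrial thioesterase, from a mean of 7.18 to 27.8 CPM (log2 differences 2.68 ± 0.12 and 1.95 ± 0.075). Pdk4, the gene with the largest rise, is a member of this list.

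Nuclear receptor genes moved in both directions. Of 29 tested 6 were higher and 6 lower, near the shares over all genes tested (22.3% and 19.4%). The median log2 difference was 0.01, and 2 called members reached 2-fold. Without bexarotene replicate 1, 3 were higher. Rxra, a receptor of bexarotene, was at 19.5, 19.7, 18.4 and 19.2 CPM with DMSO and 14.0, 13.2 and 15.1 CPM with bexarotene, lower in all 3 treated libraries (log2 difference -0.44 ± 0.091, adjusted p = 0.000176). Rxrb was at 107, 112, 115 and 111 CPM and 117, 109 and 110.2 CPM, overlapping ranges with a 95% interval of -0.14 to 0.17. Esrra (log2 difference 0.46) and Nr2c1 (0.49) were higher. The thyroid hormone receptor genes Thrb (-0.56) and Thra (-0.39) and the glucocorticoid receptor gene Nr3c1 (-0.34) were lower, and Ppard was not called (0.05). Of 18 corepressors and coactivators 3 were lower, Ppargc1b (-0.59), Ncoa3 (-0.31) and Ncor1 (-0.31), and none higher. Ncor1 lost its call without bexarotene replicate 1 or 2. The number lower was 6 without bexarotene replicate 3 and 9 without the 3 MIG libraries richest in ribosomal protein reads.

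**Figure D2:**
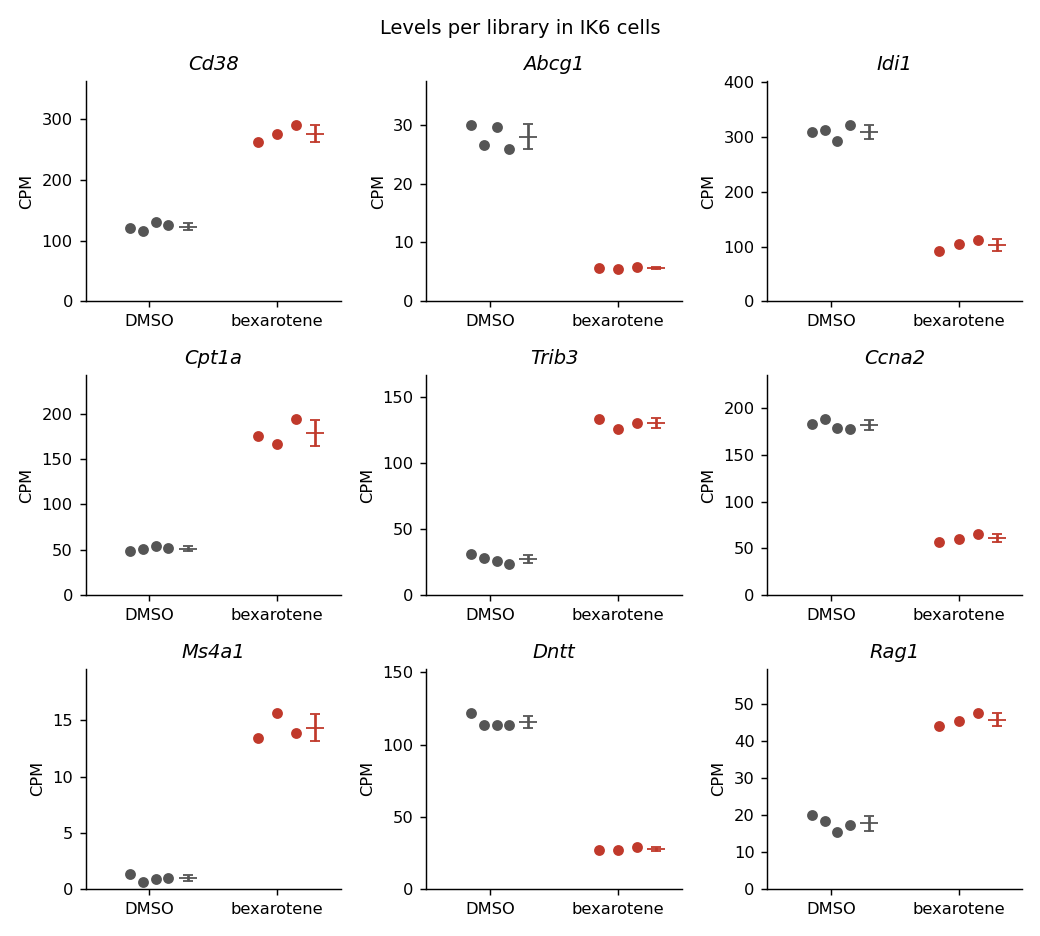
Levels in CPM of 9 genes in IK6 cells, 1 point per library, with the 4 DMSO libraries in grey and the 3 bexarotene libraries in red. Crosses with bars are the group mean and SD. The groups are separate in all 9 panels, and Abcg1, Idi1, Ccna2 and Dntt are lower with bexarotene, the other 5 higher.

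Genes of the cell cycle fell. All 37 mitosis genes were lower, with a median log2 difference of -1.23 and 34 of them at least 2-fold. Ccna2, the cyclin of S phase and G2, was at 183, 189, 179 and 178 CPM with DMSO and 57.0, 60.0 and 65.4 CPM with bexarotene (log2 difference -1.58 ± 0.071, adjusted p = 4.59e-18). Bub1b, a spindle checkpoint kinase, was at 177, 195, 180.5 and 176 CPM and 69.8, 73.3 and 77.7 CPM (log2 difference -1.31 ± 0.059, adjusted p = 6.01e-18). Every treated library of both genes was below every control. Cdc25b, the phosphatase that starts mitosis, fell from a mean of 97.4 to 43.1 CPM and Racgap1, needed to divide the cell body, from 127 to 59.2 CPM. Of 40 S phase genes 37 were lower and none higher, with a smaller median of -0.63. Rrm1, the large subunit of ribonucleotide reductase, was at 249.8, 244, 226 and 233 CPM with DMSO and 88.6, 97.6 and 113 CPM with bexarotene (log2 difference -1.26 ± 0.088, adjusted p = 2.79e-13). The replication factors Mcm10 (49.2 to 21.9 CPM) and Lig1 (111 to 55.0 CPM) and the methylation cofactor Uhrf1 (174 to 86.8 CPM) fell too. Of 24 tested histone genes of the replication type, 4 were lower and none higher; they have near-identical copies, so single counts are uncertain.

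Brakes on the cycle went in both directions. Of 26 genes of cyclin-dependent kinase inhibitors and quiescence 9 were higher and 5 lower. Cdkn1a, which encodes p21, was at 54.3, 59.0, 59.3 and 56.7 CPM with DMSO and 134, 136 and 122 CPM with bexarotene (log2 difference 1.19 ± 0.11, adjusted p = 2.89e-10). Btg2, an antiproliferative gene of lymphocytes, was at 45.1, 49.3, 51.1 and 48.1 CPM and 150.1, 142 and 134 CPM (log2 difference 1.55 ± 0.085, adjusted p = 7.82e-16). No library of either gene overlapped the other group. Klf2, the quiescence factor of lymphocytes, rose from 4.35 to 16.0 CPM and Btg1 from 134 to 245 CPM. Cdkn2c, which encodes p18, fell from 44.2 to 21.6 CPM, and Rbl1 (-0.55) and Txnip (-0.43) were also lower on the log2 scale. Among 13 D-type cyclins, their kinases and E2F factors, 5 were lower and 1 higher (0 without bexarotene replicate 3). The repressors E2f8 (80.8 to 34.9 CPM) and E2f7 (23.6 to 10.7 CPM), E2f2 (98.1 to 67.9 CPM) and Cdk6 (75.6 to 39.5 CPM), the kinase on which BCR-ABL1 leukemia is known to depend, were all lower. Of 40 genes of the MYC network 15 were lower and 4 higher, with a median of -0.14. The nucleolar genes Ncl (1919 to 1233 CPM) and Nolc1 (185 to 145 CPM) and Shmt1, of serine metabolism (51.6 to 35.2 CPM), fell, while Mxd4, a MAX partner that opposes MYC, rose from 149 to 246 CPM. Of 22 p53 targets 7 were higher, among them the kinase gene Plk2 (3.21 to 13.5 CPM), and 8 lower, among them the G2 gene Gtse1 (43.0 to 20.0 CPM).

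Stress genes under ATF4, the factor made when the eIF2 kinases slow translation, were higher. Of 36 tested 23 rose and 2 fell (1 fell without bexarotene replicate 1 or DMSO replicate 2), with a median of 0.37. Trib3, a pseudokinase that curbs ATF4, was at 30.8, 27.8, 25.9 and 23.8 CPM with DMSO and 133, 126 and 130.4 CPM with bexarotene (log2 difference 2.26 ± 0.1, adjusted p = 3.94e-18). Atf5 was at 23.6, 26.0, 23.3 and 22.3 CPM and 149, 142 and 118 CPM (log2 difference 2.52 ± 0.11, adjusted p = 4.37e-18). Ddit3, which encodes CHOP, was at 21.1, 20.2, 21.3 and 19.8 CPM and 92.3, 87.4 and 79.8 CPM (log2 difference 2.07 ± 0.065, adjusted p = 2.51e-22). The groups of these 3 regulators did not overlap. Sesn2, an inhibitor of the growth kinase mTORC1 and also a p53 target, rose from 28.7 to 63.3 CPM. Of 31 genes of the unfolded protein response 18 rose and 3 fell (1 fell without bexarotene replicate 1), with a median of 0.32. Its sensor Ern1 rose from 75.9 to 199 CPM, the chaperone genes Dnajb9 from 21.2 to 40.8 CPM and Hyou1 from 227 to 312 CPM, and Herpud1, of the degradation machinery, from 131 to 226 CPM. Of 39 lysosome and autophagy genes 21 rose and 3 fell (1 fell without bexarotene replicate 1 or 2 or DMSO replicate 2 or 4), with a median of 0.32 and no member at 2-fold. The enzyme genes Ppt1 (130.5 to 198 CPM), Neu1 (40.3 to 61.0 CPM) and Tpp1 (53.2 to 71.2 CPM) and the autophagy receptor gene Sqstm1 (103 to 183 CPM) were among them.

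**Figure D3:**
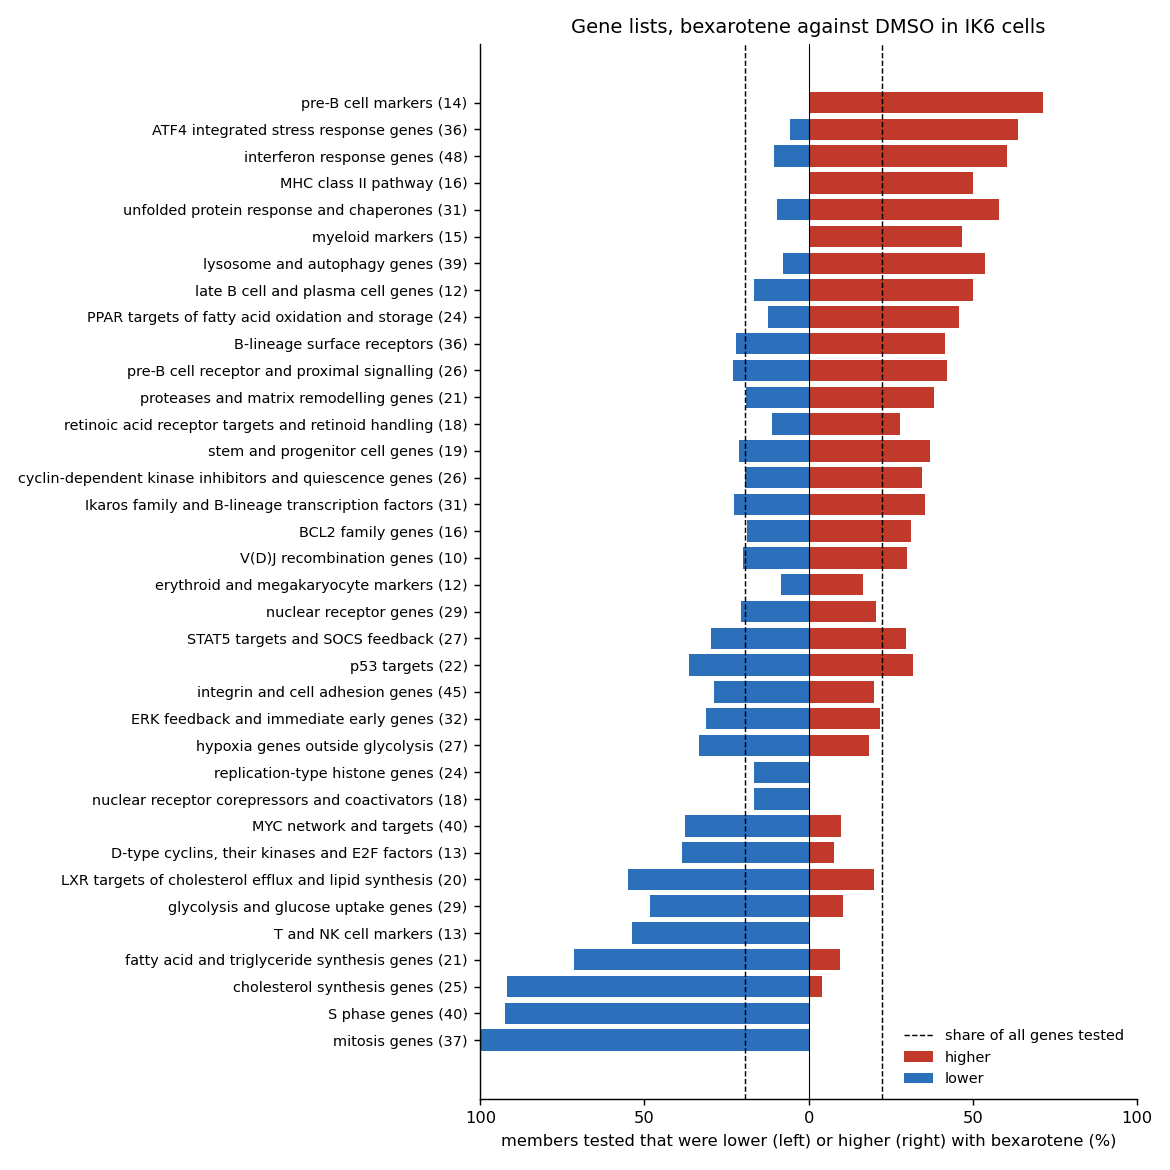
Share of the tested members of each list with at least 10 tested members that was called lower (left, blue) or higher (right, red) with bexarotene in IK6 cells, with the number tested in brackets. Dashed lines are the shares over all genes tested, 19.4% lower and 22.3% higher. Mitosis, S phase and cholesterol synthesis genes lie far beyond the line on the left, and pre-B cell markers and ATF4 genes beyond it on the right.

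Among genes of the B lineage the recombinase and several receptor chains were higher and the terminal transferase lower. Of 10 genes of V(D)J recombination 3 rose and 2 fell. Rag1, a recombinase subunit, was at 20.1, 18.3, 15.3 and 17.3 CPM with DMSO and 44.1, 45.5 and 47.6 CPM with bexarotene (log2 difference 1.37 ± 0.098, adjusted p = 4.74e-13). Its partner Rag2 rose from 2.37 to 4.95 CPM and Dclre1c, the nuclease Artemis that opens the hairpins, from 31.2 to 46.3 CPM. In the opposite direction went Dntt, the terminal transferase that adds bases to heavy chain joints in pro-B cells, at 122, 114, 113 and 114 CPM with DMSO and 26.9, 27.1 and 29.3 CPM with bexarotene (log2 difference -2.06 ± 0.13, adjusted p = 1.87e-14). All treated libraries were below all controls. Of 26 genes of the pre-B cell receptor and its proximal signalling 11 rose and 6 fell. Vpreb3 (308 to 657 CPM), Cd79a (751 to 1208 CPM), the heavy chain constant gene Ighm (1400.0 to 1880.0 CPM) and the surrogate light chain gene Igll1 (894 to 1124 CPM) were higher, as were the kinase genes Syk (235 to 365 CPM) and Lyn (120.2 to 154 CPM) and the adaptor gene Blnk (140.5 to 186 CPM). The lower ones included 4 that are known from T cell receptor signalling, Zap70 (14.6 to 8.03 CPM), Lat (71.1 to 48.6 CPM), Lcp2 (20.2 to 12.8 CPM) and Fyn (146 to 116 CPM), and the phospholipase gene Plcg2 (458 to 326 CPM). Without bexarotene replicate 3, 9 members were higher and 7 lower, and without bexarotene replicate 1, where Igll1 lost its call (adjusted p = 0.0667), 7 were higher. Of 14 pre-B cell markers, which share members with these lists, 10 were higher and none lower.

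Surface receptors and transcription factors of B cells moved both ways. Of 36 B-lineage surface receptor genes 15 rose and 8 fell. S1pr1, the receptor with which lymphocytes leave tissues for the blood, was at 8.69, 7.23, 8.27 and 8.48 CPM with DMSO and 55.8, 56.8 and 58.8 CPM with bexarotene, without overlap (log2 difference 2.80 ± 0.079, adjusted p = 2.19e-23). Fcgr2b, an inhibitory Fc receptor, rose from 41.1 to 64.6 CPM, and Cd44, an adhesion receptor of activated cells, fell from 70.0 to 34.9 CPM. Of 31 Ikaros family and B-lineage factor genes 11 rose and 7 fell, with a median of 0.04. Without bexarotene replicate 3 or DMSO replicate 4 the number that rose was 7, and without bexarotene replicate 1 the number that fell was 4. Ikzf1 itself was at 438, 425, 413 and 419.8 CPM with DMSO and 452, 472 and 532 CPM with bexarotene, a small difference with no overlap (log2 difference 0.19 ± 0.068, adjusted p = 0.0203). Without bexarotene replicate 3 it was 0.12 and not called (adjusted p = 0.194). Its relatives Ikzf3 (203 to 279.5 CPM) and Ikzf4 (7.59 to 13.0 CPM) and the Ets factor gene Spib (183 to 294 CPM) were higher. Id3 (21.7 to 10.0 CPM) and Id2 (16.2 to 10.1 CPM), which block E proteins, and Mef2c (282 to 183 CPM) and Ets1 (183 to 132 CPM) were lower. Ebf1 (95% interval -0.24 to 0.05) and Pax5 (-0.11 to 0.47), which hold B cell identity, were not called. Among 12 tested genes of late B and plasma cells 6 rose and 2 fell (1 fell without bexarotene replicate 1). Igkc, the kappa light chain constant gene, was at 1.07, 1.19, 1.22 and 1.31 CPM with DMSO and 5.06, 4.43 and 4.42 CPM with bexarotene, low in all but separate (log2 difference 1.96 ± 0.2, adjusted p = 1.85e-09). Ell2, Creb3l2 and Bhlha15, which act in secreting cells, rose by 0.37, 0.85 and 0.91 on the log2 scale.

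Genes of antigen presentation and of the interferon response were more often higher than lower. Of 16 tested genes of the MHC class II pathway 8 rose and none fell. Cd74, the invariant chain, was at 49.0, 50.8, 48.9 and 45.2 CPM with DMSO and 171, 168 and 152 CPM with bexarotene (log2 difference 1.75 ± 0.11, adjusted p = 2.44e-14). H2-Aa (2.02 to 4.17 CPM) and H2-Eb1 (1.30 to 3.30 CPM), which present peptides, and the lysosomal protease gene Lgmn (20.1 to 37.7 CPM) rose with it. Of 48 interferon response genes 29 rose and 5 fell, with a median of 0.35; without bexarotene replicate 3, 25 rose, and without bexarotene replicate 1, 19. Irf9, part of the factor that interferon activates, was at 31.1, 29.8, 30.9 and 28.6 CPM with DMSO and 44.8, 46.3 and 47.5 CPM with bexarotene, without overlap (log2 difference 0.62 ± 0.056, adjusted p = 9.93e-11). Gbp6 (3.33 to 8.28 CPM), Oasl2 (1.62 to 3.62 CPM) and Usp18 (1.71 to 3.31 CPM) rose with it.

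Markers of T and NK cells were lower and those of myeloid cells higher where they were called. Of 13 tested T and NK cell markers none were higher and 7 lower. Thy1 was at 21.5, 24.8, 23.0 and 23.2 CPM with DMSO and 7.66, 8.09 and 7.64 CPM with bexarotene, and Cd28, the costimulatory receptor, at 22.5, 21.9, 23.9 and 24.7 CPM and 8.04, 8.58 and 9.71 CPM (log2 differences -1.57 ± 0.13 and -1.41 ± 0.15). Both were clearly expressed in the controls while the chains of CD3 were near 0. Cd5, which marks T cells and some B cells, fell from 3.72 to 1.04 CPM. Of 15 tested myeloid markers 7 were higher and none lower. Fcgr1, a high-affinity Fc receptor, rose from 0.0655 to 0.863 CPM, Itgam, an integrin of myeloid cells, from 1.87 to 4.84 CPM, Mrc1 from 5.52 to 9.83 CPM and Csf2ra from 20.1 to 38.6 CPM. Of 19 tested stem and progenitor cell genes 7 rose and 4 fell. The paralogs Gfi1b and Gfi1, repressors of blood progenitors, moved apart: Gfi1b was at 41.6, 48.1, 41.6 and 40.7 CPM with DMSO and 14.5, 14.0 and 15.9 CPM with bexarotene, and Gfi1 at 0.781, 0.867, 0.899 and 0.675 CPM and 3.00, 3.28 and 3.11 CPM (log2 differences -1.53 ± 0.11 and 1.96 ± 0.15). Angpt1 fell from 9.40 to 3.40 CPM and Bmi1, a Polycomb gene, rose from 76.0 to 114 CPM.

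Lists of adhesion, metabolism and signalling held members that rose and members that fell. Of 45 tested integrin and adhesion genes 9 rose, Pecam1 among them (49.2 to 95.5 CPM), and 13 fell, among them the focal adhesion gene Vcl (58.8 to 34.0 CPM). Of 21 tested genes of proteases and matrix 8 rose, with Mmp11 (16.7 to 41.3 CPM) and Adam19 (10.3 to 18.5 CPM), and 4 fell, with Mmp14 (43.4 to 26.0 CPM). Of 29 glycolysis and glucose uptake genes 14 fell and 3 rose, with a median of -0.21. Pfkm, a phosphofructokinase, fell from 57.5 to 34.1 CPM, Slc16a1, a lactate carrier, from 224 to 149.9 CPM and Pdk3 from 41.6 to 28.0 CPM. Of 27 hypoxia genes outside glycolysis 9 fell, such as Egln3 (132 to 64.5 CPM) and Bhlhe40 (134 to 69.0 CPM), and 5 rose, among them Vegfa, the angiogenic factor, which was at 401, 409, 422 and 408 CPM with DMSO and 782, 796 and 728 CPM with bexarotene (log2 difference 0.91 ± 0.086, adjusted p = 2.4e-10). Of 16 tested BCL2 family genes 5 rose and 3 fell (1 without bexarotene replicate 1). Bmf, a BH3-only killer gene, was at 35.6, 34.0, 36.1 and 32.5 CPM with DMSO and 89.3, 86.8 and 91.5 CPM with bexarotene, without overlap (log2 difference 1.37 ± 0.066, adjusted p = 2.77e-17). Bcl2l11, which encodes BIM, rose from 85.3 to 116 CPM and Bcl2l14 from 0.821 to 1.80 CPM, and Bok fell from 12.6 to 5.34 CPM. STAT5 carries much of the BCR-ABL1 signal. Of 27 genes on the list of STAT5 targets and SOCS feedback 8 rose, such as Cish (71.0 to 98.0 CPM), and 8 fell. The kinase gene Jak1 (439 to 306 CPM) was among those that fell, though it is not itself a target. Of 32 tested ERK feedback and immediate early genes 10 fell, among them Dusp7 (129 to 58.5 CPM), Etv4 (20.2 to 11.3 CPM) and Spry4 (13.2 to 6.71 CPM), and 7 rose, among them the stress gene Atf3 (9.63 to 29.2 CPM).

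Whether IK6 alters the response was asked by setting it beside that of MIG cells, which shares no library with it. In MIG cells 5986 genes (38.1%) were called, 3125 higher (19.9%) and 2861 lower (18.2%); with library totals as the only scaling, 65.2% of the calls were higher instead of 52.2%. Of the genes higher in IK6 cells 2306 were higher in MIG cells too, which is 65.8% of the IK6 and 73.8% of the MIG calls. Of the lower genes 1958 were shared, 64.2% of the IK6 and 68.4% of the MIG calls. Opposite calls were made for 51 of the genes higher and 15 of the genes lower in IK6 cells. The difference between the responses was tested as an interaction, which called 894 genes (5.69%), 492 with a response higher in IK6 (3.13%) and 402 lower (2.56%). With library totals, 45% of the interaction calls were higher instead of 55%, and without IK6 bexarotene replicate 1 there were 562 calls. Of the 894 genes 409 were called in both vectors in the same direction, 66 in opposite directions, 193 in IK6 cells only and 225 in MIG cells only.

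Cell cycle genes fell further in IK6 cells. The interaction called 30 of 37 mitosis genes lower and none higher (33 without the 3 MIG libraries richest in ribosomal protein reads, 23 to 35 over all alternatives), and the median response was -1.23 in IK6 and -0.69 in MIG cells on the log2 scale. Ccna2 was at 134 ± 4.58 CPM (SD, n = 4) and 78.9 ± 2.17 CPM (n = 3) in MIG cells with DMSO and bexarotene, a response of -0.77 against -1.58 in IK6 cells (difference -0.82 ± 0.096, adjusted p = 1.07e-06). Of the S phase genes 13 had a lower response in IK6 cells (6 to 18 over the alternatives, with 6 without IK6 bexarotene replicate 1 and 8 without MIG bexarotene replicate 1), Rrm1 by -0.62 and Mcm10 by -0.59. For Bub1b (-0.62), Cdc25b (-0.77) and Racgap1 (-0.51) the difference was called as well. Glycolysis and hypoxia genes went the other way, with falls in MIG cells that were smaller in IK6 cells: the interaction called 12 of 29 glycolysis genes and 12 of 27 hypoxia genes higher and none lower. The median responses were -0.21 in IK6 and -0.73 in MIG cells for glycolysis, and 0.00 and -0.62 for hypoxia genes. The glycolysis count ran from 8 to 16 and was 8 without IK6 bexarotene replicate 3. Ndrg1, a hypoxia gene, was at 54.5 ± 1.28 and 36.3 ± 4.38 CPM in IK6 cells and at 73.3 ± 5.59 and 25.1 ± 1.08 CPM in MIG cells with DMSO and bexarotene (difference of the responses 0.96 ± 0.16, adjusted p = 0.000126), and Egln3 (0.69) and Pfkm (0.36) were called too, the latter not without IK6 bexarotene replicate 3 (adjusted p = 0.0508). Cholesterol synthesis genes had no interaction call in 25, with medians of -1.05 and -1.04; among their leading members the intervals of the difference were -0.49 to 0.03 for Idi1 and -0.52 to -0.04 for Acat2, which was called without IK6 bexarotene replicate 3 (adjusted p = 0.0428).

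**Figure D4:**
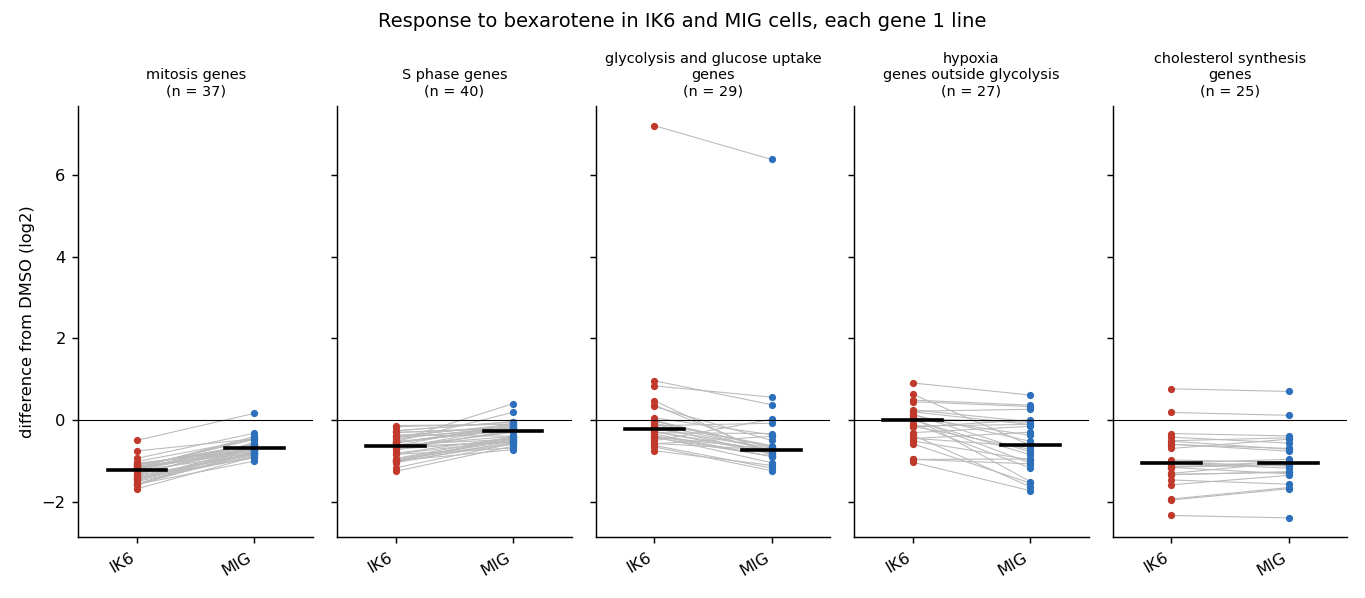
Log2 differences between bexarotene and DMSO in IK6 (red) and MIG (blue) cells for 5 lists. Each point is a gene, grey lines join the same gene, and black bars are medians. Mitosis and S phase genes lie lower in IK6 cells, glycolysis and hypoxia genes lower in MIG cells, and cholesterol synthesis genes at -1.05 and -1.04 in the median. The glycolysis point above 6 is Pdk4.

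Single genes with the largest differences between the vectors were of several kinds. Cacna1i, a calcium channel gene, was not called in IK6 cells (2.46 ± 0.131 and 2.18 ± 0.268 CPM) and rose in MIG cells from 5.78 ± 0.976 to 24.5 ± 1.40 CPM. Enthd1 (difference -2.25) and Cd5 (-2.10) also had lower responses in IK6 cells. Higher responses were found for Glt25d2, at 4.59 ± 0.432 and 10.9 ± 1.64 CPM in IK6 cells and 11.0 ± 1.33 and 5.34 ± 1.13 CPM in MIG cells, for Megf6 (2.19), for the growth factor gene Tgfa (2.06) and for Cd40 (1.98). Of the genes described above, Gas7 (1.65), Mc1r (0.97), Tgm2 (0.94), Asb2 (0.86), Abcg1 (0.73) and Acot2 (0.49) had higher responses in IK6 cells, and Cd38 (-0.41), Cd36 (-0.84), S1pr1 (-1.02), Ms4a1 (-0.75), Rag1 (-0.63) and Syk (-0.33) lower ones. For Abcg1 a higher response means a smaller fall, from 39.9 ± 1.28 to 4.88 ± 0.253 CPM in MIG cells. The difference for Ms4a1 lost its call without any 1 of 9 libraries (adjusted p up to 0.193, without IK6 DMSO replicate 1). No difference was called for Cpt1a (95% interval -0.22 to 0.09), Slc25a20 (-0.63 to 0.10), Trib3 (-0.08 to 0.50), Ddit3 (0.08 to 0.45), Cd74 (-0.51 to 0.13) and Rag2 (-0.54 to 0.11). Ddit3 was called with DESeq2 (adjusted p = 0.046) and without IK6 bexarotene replicate 3 (0.0431).

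Bexarotene was also set against ATRA at the same 1 µM in IK6 cells. The compounds differ in structure, ATRA being a retinoid with a polyene chain and bexarotene an aromatic rexinoid without one. A direct contrast called 3441 genes (21.9%), 1834 higher (11.7%) and 1607 lower (10.2%) with bexarotene. With library totals as the only scaling 66.7% of the calls were higher instead of 53.3%, and a fit of the compared groups alone called 5475 genes. The differences of each compound from DMSO rest on the same DMSO libraries and are given side by side only; ATRA against DMSO called 6837 genes (43.6%), 3557 higher (22.7%) and 3280 lower (20.9%). For LXR targets the contrast called 12 of 20 lower with bexarotene and 1 higher (0 without bexarotene replicate 1 or 3). Abcg1 was at 28.0 ± 2.12 CPM with DMSO, 5.67 ± 0.182 CPM with bexarotene and 236 ± 8.08 CPM with ATRA (bexarotene minus ATRA -5.38 ± 0.079, adjusted p = 9.22e-32). Abca1, nearly absent with DMSO and bexarotene, was at 11.6 ± 0.411 CPM with ATRA. Scd1 was at 6236 ± 175 CPM, Srebf1 at 304 ± 9.61 CPM and Mylip at 129 ± 1.14 CPM with ATRA; the difference between the compounds was called for each (bexarotene minus ATRA -3.50, -1.76 and -1.82). Differences of the same direction were called for Fasn (-1.59), Scd2 (-2.47), Arl4c (-2.31) and Acsl3 (-1.56). Of the cholesterol synthesis genes 23 of 25 were lower with bexarotene than with ATRA, for example Idi1 (227 ± 1.67 CPM with ATRA, bexarotene minus ATRA -1.14), Acat2 (-1.18) and Lss (-1.04).

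Of the RAR targets the contrast called 8 of 18 lower and 1 higher with bexarotene (0 higher without bexarotene replicate 1 or ATRA replicate 1 or 2). Cd38 was at 600.3 ± 14.3 CPM with ATRA against 276 ± 13.9 CPM with bexarotene, Tgm2 at 106 ± 6.23 against 27.2 ± 2.17 CPM, and Hic1 at 13.4 ± 1.62 against 1.60 ± 0.243 CPM. Tspan15, which is not on the list, was at 248 ± 10.1 against 34.8 ± 1.75 CPM. Each was thus raised by both compounds and further by ATRA (bexarotene minus ATRA -1.12, -1.97, -3.07 and -2.83), as were Asb2 (-1.34) and Cyp26a1 (-2.43). Dhrs3 fell with bexarotene and was at 12.2 ± 1.87 CPM with ATRA (-2.20). Of the PPAR targets 4 of 24 were higher with bexarotene and 4 lower, each number falling to 2 without some single libraries, bexarotene replicate 3 among them: Cd36 had 65.9 ± 0.999 CPM under ATRA against 70.5 ± 2.72 CPM under bexarotene (95% interval of the difference -0.14 to 0.33), whereas Cpt1a was higher with bexarotene by 0.38.

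ATF4 genes differed between the compounds. The contrast called 32 of 36 ATF4 genes higher with bexarotene and none lower (32 to 35 over the alternatives), with a median of 0.88. Trib3 was at 14.4 ± 0.834 CPM with ATRA, below its DMSO level of 27.1 ± 2.97 CPM, against 129.9 ± 3.66 CPM with bexarotene (bexarotene minus ATRA 3.17 ± 0.1, adjusted p = 1.14e-21). Atf5 (13.8 ± 0.884 CPM with ATRA, 3.30), Ddit3 (15.7 ± 0.519 CPM, 2.46) and Sesn2 (20.5 ± 0.523 CPM, 1.62) showed the same order. Mitosis genes were lower with ATRA than with bexarotene in 33 of 37 cases and higher in 1, 28 without bexarotene replicate 3, with median differences from DMSO of -1.77 and -1.23. Ccna2 was at 49.5 ± 1.54 CPM with ATRA. For S phase genes the medians were -0.68 and -0.63, and 4 of 40 differed (1 without bexarotene replicate 2). Interferon response genes were lower with bexarotene than with ATRA in 26 of 48 cases (20 to 33 over the alternatives). Oasl2 was at 4.82 ± 0.191 CPM with ATRA against 3.62 ± 0.305 CPM, while for Irf9 the interval of the difference was -0.01 to 0.21.

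Genes furthest apart between the compounds included 3 that were called higher with bexarotene and lower with ATRA, each against DMSO, namely Soat2, Cox6a2 and Angptl6. Soat2 was at 0.550 ± 0.140 CPM with ATRA against 17.7 ± 1.93 CPM with bexarotene (4.98 ± 0.21, adjusted p = 7.23e-19). Cox6a2, a subunit of cytochrome oxidase in muscle, was at 7.01 ± 1.14 CPM with DMSO, 46.4 ± 9.67 CPM with bexarotene and 1.59 ± 0.146 CPM with ATRA. Angptl6 was at 2.98 ± 0.428, 17.3 ± 2.60 and 1.39 ± 0.277 CPM in that order, and Ostn (6.56), Wwtr1 (5.96) and Itgad (4.48) were also higher with bexarotene. Much higher with ATRA was Igf1, the growth factor, at 6.64 ± 0.656 CPM with DMSO, 9.90 ± 0.865 CPM with bexarotene and 152 ± 5.21 CPM with ATRA. Mmp9 was at 76.0 ± 1.95 CPM with ATRA, Clec7a, which had 0 counts with DMSO and 7 with bexarotene, at 2.86 ± 0.584 CPM, and Arsi at 1.08 ± 0.255 CPM. Ms4a1 (1.32), Cd40 (2.31) and Ngfr (1.83) were higher and Dntt (-1.23) lower with bexarotene than with ATRA, while for Rag1 the interval was -0.02 to 0.37. Cdkn1a was higher with ATRA (182 ± 9.26 CPM, bexarotene minus ATRA -0.48).

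**Figure D5:**
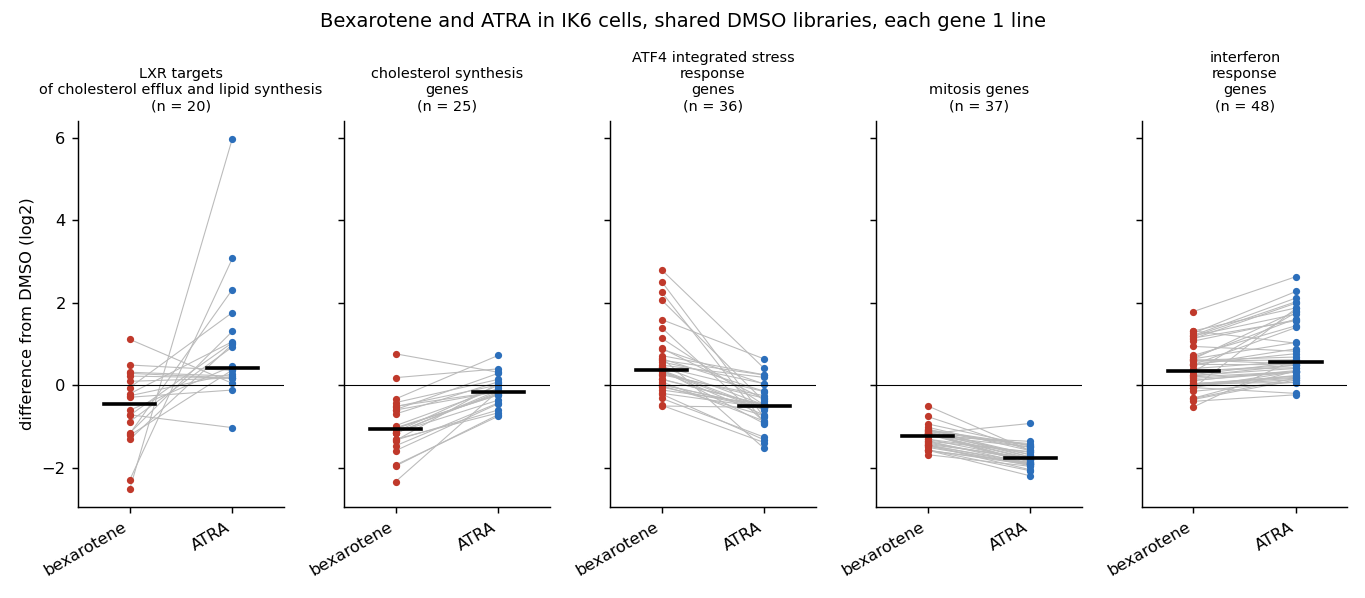
Log2 differences from DMSO in IK6 cells for bexarotene (red) and ATRA (blue), in 5 lists, with each gene joined by a grey line and medians as black bars. Both compounds share the DMSO libraries. LXR targets have medians of -0.45 and 0.42, ATF4 genes of 0.37 and -0.51, and mitosis genes of -1.23 and -1.77.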

How the data were processed

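RNA-seq counts per gene came from 37 libraries in 10 groups of vector and treatment. Per the labels' protocols, RNA was extracted with Trizol and made into TruSeq RNA v2 libraries. The authors deposited unnormalized read counts for each gene; per the submitters' processing notes the authors used BWA 0.5.9, HTSeq and build mm9. For annotation, strand setting and counting mode the sources used here give nothing, so reads of overlapping, antisense or near-identical genes may be split in an unknown way. Symbols are those of the files, and 195 of them are repeated.

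Titles gave the groups. Of 35290 genes, 15699 were kept by filterByExpr (at least 10 counts, 15 in total). All 37 libraries were fitted in 1 model of 10 groups with edgeR 4.0.16 in R 4.3.3: TMM scaling, robust quasi-likelihood, 27 residual degrees of freedom, two-sided tests, Benjamini-Hochberg adjustment over 15699 genes and a threshold of 0.05. Levels are CPM with TMM scaling, except the summed levels of marker lists, which are CPM of the library total alone. Fitted folds carry a prior count of 0.125. Values after ± are SE for differences (n = 3 and 4 per group, with the spread estimated over all 37 libraries) and SD for levels. Intervals are 95%, and intervals of count ratios cover counting error only. In simulated counts for the IK6 comparison (15699 genes, 200 of them altered), recovery was 47 of 67 at 1.5-fold, 61 of 67 at 2-fold and 66 of 66 at 4-fold, and 8 of the 15499 unaltered genes were called. The simulated counts held no deviation shared by the genes of a library and far fewer altered genes than were called. These rates need not hold for the real libraries.

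The comparisons, the 37 gene lists (1057 entries, 1055 matched to the files) and the genes named were chosen with earlier results of these data known. Genes were named by a rule: the 12 largest rises and 12 largest falls among calls without overlap whose mean reached 1 CPM in either group, 6 each way for the interaction and for the contrast with ATRA, the 4 members with the lowest p in every list, and the members of 6 lists; predicted genes, those without a name and duplicated symbols were passed over, and the text names a part; some genes that the rule picked are not reported here. Promoters came from RefSeq (GRCm38.p6), with 9639 of 15586 tested genes of a single symbol matched. Within each of the groups compared, no library repeated another. Pairs across groups and the remaining groups were not checked. Alternatives were DESeq2 1.42.0, other scalings and filters, fewer groups, a block for the replicate number, and fits with libraries left out. Python 3.11.15 with pandas 2.3.3, numpy 2.4.6 and matplotlib 3.10.9 made tables and figures.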

Additional observations from a re-analysis of the deposited data

Results flagged for a closer look

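In 23 of the 288 groups of 4 libraries looked at, 1 library stood apart from the other three by a gap, divided by the group's range, above Dixon's 95% critical value. Chance gives about 1 in 20. In IK6 cells with DMSO, replicate 1 stood apart for Dntt (0.958), Btg1 (0.884), Racgap1 (0.877), Pecam1 (0.853), Dclre1c (0.839) and Ikzf3 (0.836), replicate 2 for Gfi1b (0.872), Glt25d2 (0.855) and Mylip (0.845), replicate 3 for Ostn (1), Arsi (0.948), Slc25a20 (0.903) and Spry4 (0.874), and replicate 4 for Pdk4 (1) and Ell2 (0.832). Pdk4 and Ostn had 0 counts in the remaining DMSO libraries. With ATRA, replicate 4 stood apart for Rag1 (0.923) and replicate 3 for Ngfr (0.842) and Scd2 (0.835). In MIG cells with DMSO, replicate 3 stood apart for Idi1 (0.967), Acat2 (0.935), Cdc25b (0.911), Enthd1 (0.841) and the ribosomal protein share (0.907; 15.37% against 9.27 to 9.84%).

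Of 48 genes whose interaction was printed, the response to bexarotene differed between IK6 and MIG cells for 28 (edgeR's interaction test, adjusted over all genes). Over all genes tested, 5.69% were called. Some of the 48 were named because their interaction was called, so the number 28 is no result about them. On the log2 scale, as IK6 minus MIG, the difference was positive for Glt25d2 (2.29), Megf6 (2.19), Tgfa (2.06), Cd40 (1.98), Gas7 (1.65), Mc1r (0.97), Ndrg1 (0.96), Tgm2 (0.94), Asb2 (0.86), Abcg1 (0.73), Egln3 (0.69), Acot2 (0.49) and Pfkm (0.36). It was negative for Cacna1i (-2.28), Enthd1 (-2.25), Cd5 (-2.10), S1pr1 (-1.02), Cd36 (-0.84), Ccna2 (-0.82), Cdc25b (-0.77), Ms4a1 (-0.75), Rag1 (-0.63), Bub1b (-0.62), Rrm1 (-0.62), Mcm10 (-0.59), Racgap1 (-0.51), Cd38 (-0.41) and Syk (-0.33).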

How the results depend on the processing

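The 6555 calls for bexarotene in IK6 cells became 6539 with DESeq2, 6459 to 6595 with other scalings, 6000 and 6171 with other filters, 8768 with the compared groups alone, and 5135 to 6074 without any 1 of the 7 libraries. The interaction gave 562 to 830 calls without any 1 library, against 894, and the contrast with ATRA 5475 with the compared groups alone, against 3441. The cause of these moves was not tested. With replicate numbers as a block, 6289 genes were called. Same-numbered libraries deviated with correlations of -0.179, 0.171 and 0.0802. Bexarotene replicate 1 correlated best with DMSO replicate 2 (0.144), and bexarotene replicate 3 with DMSO replicate 1 (0.24). So few libraries cannot show whether the numbers pair the samples. None of the named genes that passed the test turned its direction under an alternative run. The uncalled difference of Rxrb, 0.01, was -0.02 with DESeq2 and RLE scaling, -0.01 with the 1 CPM filter and 0.00 with no filter or without 3 MIG libraries, with -0.02 to 0.00 where leaving out 1 library turned it. That of Cdkn2a, 0.03, was -0.06 and -0.02 without bexarotene replicate 1 or 2 and up to 0.15 without replicate 3. In the IK6 comparison 8 of 190 named genes lost their call under some alternative: Ostn (adjusted p = 0.0512 with DESeq2), Arsi (0.0878 without bexarotene replicate 1), Ikzf1, Nr1h2, Apoe, Ncoa3, Ncor1 and Igll1. Many named genes were picked for a large change or a low p, so this share does not hold for all genes. Of all 6555 calls, 77.2% were kept without bexarotene replicate 1, 85.8% without replicate 2 and 87.8% with no filter. The highest share was 99.6%, without the 3 MIG libraries richest in ribosomal protein reads. In the same comparison 4 uncalled named genes were called under some alternative, namely Rarg, Nrip1, Lpcat3 and Pax5. Depth limits genes of a few counts, such as Abca1, Pdk4 and Clec7a.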
